A study of Mus musculus with 8 samples.

Results

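Aminoacyl-tRNA synthetases are the enzymes that load each amino acid onto its transfer RNA. Their genes were taken from the deposited table by symbol, 36 of its 24787 genes. Of these, 20 encode enzymes or subunits that work in the cytosol and 16, with the suffix 2 in their symbols, encode enzymes of the mitochondrion. RNA was measured in 8 libraries of 4T1, a mouse mammary tumour cell line grown in culture. The labels give 4 libraries the genotype WT and the title shcontrol, and their columns carry the construct name NT, so these cells are described here as control shRNA. The other 4 are labelled Etv5 knockdown, with the title shEtv5 and the construct name sh2 on every column, so each group appears to rest on a single construct. Etv5 encodes a transcription factor of the ETS family. No label states whether the 4 replicates of a group were separate cultures, so p-values measure only the spread between these libraries, which may be technical.

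Each synthetase recognises one amino acid and the transfer RNAs that carry it, and the loaded transfer RNA is handed to the ribosome by an elongation factor. The enzymes fall into 2 structural classes, I and II, and in mammals a set of cytosolic enzymes is held together in the multisynthetase complex by scaffold proteins. Mitochondria have a translation system of their own, and most of its synthetases come from separate nuclear genes; glycine and lysine are exceptions, for which Gars and Kars make both forms. When amino acids run short, uncharged transfer RNA activates the kinase GCN2 and the transcription factor ATF4 is made, and many cytosolic synthetase genes are known targets of ATF4.

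The deposited values behave as mean sequencing coverage along a gene after scaling for depth; they are called coverage values here and are levels per length. Before the results, the third Etv5 shRNA library stood apart. Its values summed to 390495, against 254792 to 308393 in the other 7, and 13920 genes were above 0, against 15126 to 15379. Genes for ribosomal proteins held 19.6% of its signal, against 7.32% to 11.03%, and it lay at 93.4 on the first principal component, which carried 81.9% of the variance, with the next library, the third control, at 12.8. Calls and medians are therefore given with all 8 libraries and without that library, and where a gene has a single fold change, it is the one without library 3 unless stated. Etv5 itself was at 14.1 ± 1.65 in the controls and 11.1 ± 2.52 with its shRNA (SD, n = 4 each), and the groups overlapped (log2 fold change −0.33 with all libraries, limma adjusted p = 0.819, and −0.17 without library 3, limma adjusted p = 0.422; over all 8, exact two-sided permutation p = 0.0857, where 0.0286 is the smallest that 70 assignments allow). The label knockdown is thus not separated by the targeted transcript in these libraries. Of the markers of other cells, 1 of 12 leukocyte, 1 of 7 fibroblast and 0 of 5 endothelial genes passed the filter on low values, while all 8 epithelial markers did.

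Promoter sequence is shown before the values, since genes of a family can share motifs near their start sites. RefSeq promoters of the GRCm38.p6 build, from 250 bases before to 50 after the start, were given for 27 of the 36 genes, 13 cytosolic and 14 mitochondrial. The motifs searched, 3 in all, were sought on both strands. They were TGATGNAA, the core of the C/EBP-ATF response element that ATF4 binds, the E-box CACGTG, bound by MYC among others, and CCGGAAGT, an ETS-family motif chosen because Etv5 is an ETS factor. The first was found in 5 of 13 cytosolic and 0 of 14 mitochondrial promoters, against 3.97% of the 32851 promoters in the table. The E-box was in 4 cytosolic promoters and 1 mitochondrial, against 7.15% of the table. The ETS motif was in 2 cytosolic and 1 mitochondrial, against 3.89%. Those percentages count every promoter, whether or not its gene was tested. Of the 8944 genes tested that had a promoter, 2.48% held the first motif, 12.3% the E-box and 9.996% the ETS motif. The members' ETS shares, 15.4% of cytosolic and 7.14% of mitochondrial promoters, lay on either side of 9.996%, so no excess of that motif is shown. A match is a run of letters and not a shown binding site. The stretches that hold the ATF4-type motif and the ETS motif are printed 5′ to 3′ on the gene's strand, with the match on either strand in capitals.
Aars, chr8:111033710-111033757, plus strand: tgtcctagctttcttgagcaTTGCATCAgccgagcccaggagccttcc
Aars, chr8:111033840-111033869, plus strand: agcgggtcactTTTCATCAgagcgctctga
Gars, chr6:55037951-55037998, plus strand: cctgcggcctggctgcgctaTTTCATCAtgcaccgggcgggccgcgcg
Iars, chr13:49682126-49682155, plus strand: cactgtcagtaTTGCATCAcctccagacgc
Tars, chr15:11399646-11399693, minus strand: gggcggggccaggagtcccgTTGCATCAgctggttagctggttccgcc
Yars, chr4:129189895-129189924, plus strand: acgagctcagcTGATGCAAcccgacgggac
Farsa, ETS motif, chr8:84856943-84856990, plus strand: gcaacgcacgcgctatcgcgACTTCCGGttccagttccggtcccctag
Mars, ETS motif, chr10:127311789-127311836, minus strand: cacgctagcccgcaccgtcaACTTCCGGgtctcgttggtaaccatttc
Rars2, ETS motif, chr4:34614941-34614970, plus strand: aagcagaggcgACTTCCGGcgcggaggcgg

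In these stretches, 5 of the 6 ATF4-type matches lie on the strand opposite the gene and read TTGCATCA or TTTCATCA, and the match in Yars reads TGATGCAA on the gene's own strand. Their first bases lie at −112 and 9 from the start in Aars, −30 in Gars, −15 in Tars, 3 in Yars and 7 in Iars.

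The question put to these genes was whether the synthetases, cytosolic or mitochondrial, differ in level between control and Etv5 shRNA cells. In bulk RNA of this kind fewer cells of a type and less RNA per cell cannot be told apart. All 36 passed the filter of 0.5 or more in at least 4 libraries. With all 8 libraries, limma called 0 of 36 in either direction at an adjusted p under 0.05, where 0.00852% of the 11731 genes tested were called higher and 0.486% lower. The smallest adjusted p was 0.301, for Wars, and 9 members had an unadjusted p under 0.05, 8 of them cytosolic and all 9 higher with the Etv5 shRNA; of all 11731 genes, 832 had such a p, 130 of them higher. The median log2 fold change, on the log2(value + 1) scale, was 0.26 over the cytosolic genes and −0.02 over the mitochondrial genes, beside −0.11 over all genes tested. It was above 0 in 16 of 20 cytosolic and 8 of 16 mitochondrial genes, beside 31% of all genes. In 9 cytosolic genes and in Yars2 every Etv5 shRNA library was above every control, a pattern that 1.52% of all genes showed. Qars had the opposite order, every Etv5 shRNA library below every control, which 7.58% of all genes had.

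Without the third Etv5 shRNA library, 4 of the 36 genes were called higher and 0 lower. They were 3 cytosolic genes, Wars, Aars and Gars, and the mitochondrial Mars2. Over the 11685 genes then tested, 1.09% were called higher and 2.06% lower. With these 4, 14 members had an unadjusted p under 0.05, all higher, and so had 2201 of all genes, 979 of them higher. The median log2 fold change was 0.27 over the cytosolic genes, 0.04 over the mitochondrial genes and −0.00 over all genes. It was above 0 in 19 of 20 cytosolic and 9 of 16 mitochondrial genes, beside 49.6% of all genes. Groups did not overlap, with the Etv5 shRNA higher, in 12 cytosolic and 4 mitochondrial genes, beside 9.78% of all genes, and with the Etv5 shRNA lower in Qars alone, beside 10.5%. These 4 calls rest on 7 libraries and are close to the threshold. Leaving out 1 more library gave 0 called members for control library 1, 2 or 4 and for Etv5 shRNA library 1 or 2, 1 (Wars) without Etv5 shRNA library 4, and 11 without control library 3. The fit without control library 3 called 416 of all 11591 genes higher and 608 lower. The others called 11 to 63 genes higher.

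**Figure D1:**
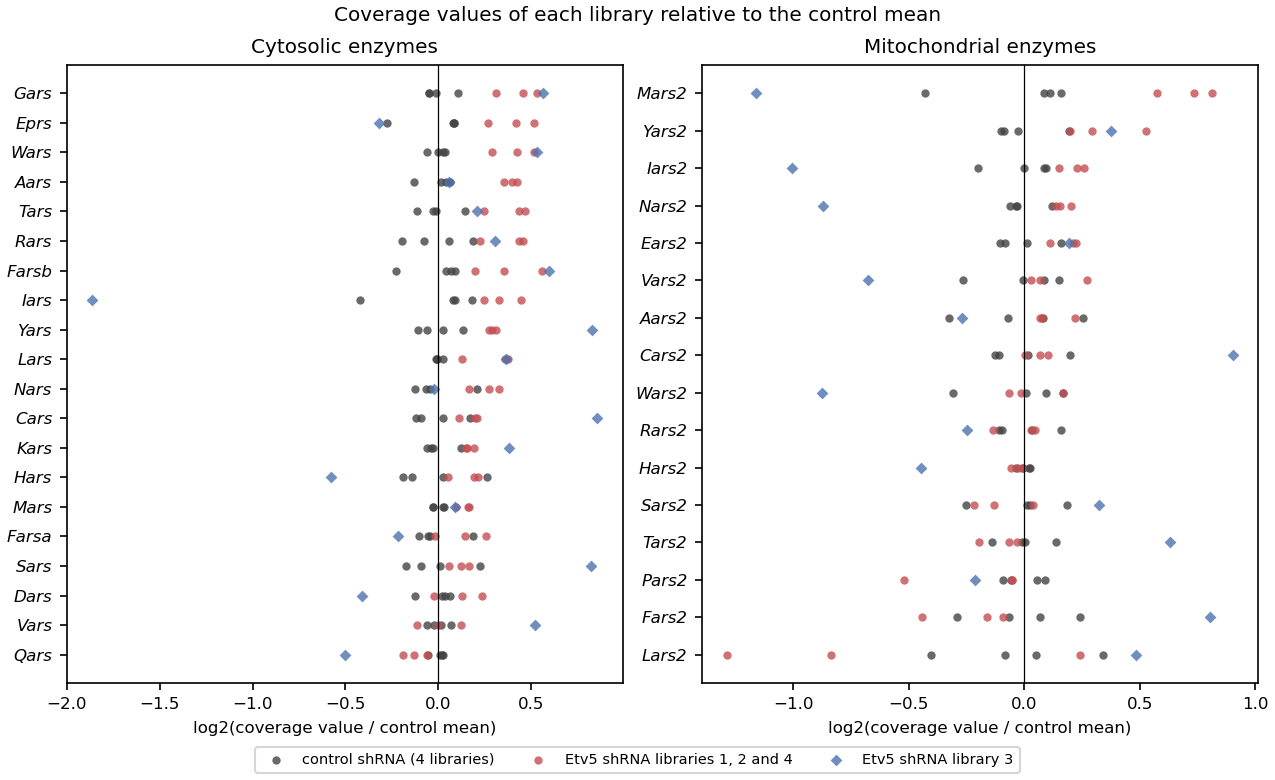
Coverage value of each library relative to the control mean, as log2, for the 20 cytosolic (left) and 16 mitochondrial genes (right), in the order of their fold change without Etv5 shRNA library 3. Grey points are the 4 controls, red points Etv5 shRNA libraries 1, 2 and 4, and blue diamonds library 3, which lies far to the left for Iars, Mars2 and Iars2 and far to the right for Cars, Sars, Yars and Cars2.

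Wars encodes the tryptophan enzyme and lies on chromosome 12, at 108860030 to 108894174 on the minus strand of mm10, with 10 exons in its longest coding transcript. Its coverage values were 30.8, 30.5, 28.7 and 29.9 in control libraries 1 to 4 and 40.2, 42.8, 43.3 and 36.6 in Etv5 shRNA libraries 1 to 4. All 4 Etv5 shRNA libraries lay above all controls, library 3 included. Its log2 fold change was 0.43 with all libraries (SE 0.114, limma adjusted p = 0.301) and 0.40 without library 3 (SE 0.0829, 95% interval 0.21 to 0.58, limma adjusted p = 0.0358). The spread of the controls, 0.910 (SD, n = 4), was small beside the difference between means of 29.98 and 39.9. Under equal sums of the 7 libraries the Wars call was lost (limma adjusted p = 0.0879).

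Gars, the glycine enzyme of both compartments, lies on chromosome 6 at 55038007 to 55079500. It read 109, 112, 121 and 109 in the controls and 155, 163, 167 and 139.8 with the Etv5 shRNA. The groups did not overlap with or without library 3, which was the highest of all. For Gars the log2 fold change was 0.46 with all libraries (SE 0.125, limma adjusted p = 0.313) and 0.43 without library 3 (SE 0.0946, 95% interval 0.22 to 0.64, limma adjusted p = 0.0433). That call was lost under median-of-ratios scaling (adjusted p = 0.0501) and without the filter on low values (adjusted p = 0.0555), and it was the sole member call under equal sums.

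Aars, the alanine enzyme, lies on chromosome 8 at 111033144 to 111057664. Its controls read 75.4, 76.9, 68.1 and 78.0, and its Etv5 shRNA libraries 99.98, 95.5, 77.5 and 98.2. Library 3 fell among the controls, and the other 3 lay above them. The log2 fold change was 0.31 with all libraries (SE 0.133, limma adjusted p = 0.693) and 0.39 without library 3 (SE 0.0854, 95% interval 0.20 to 0.58, limma adjusted p = 0.0432). In the annotation 23.1% of its transcript overlaps Exosc6, a subunit of the RNA exosome, so reads of the pair may not be told apart there. The Aars call was lost in the 7 libraries under quantile normalisation (limma adjusted p = 0.0777) and equal sums (0.0912). Exosc6 was at 37.1 ± 8.93 (SD, n = 4) in the controls and 34.9 ± 9.66 (SD, n = 3) without library 3, and at 114 in library 3.

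Mars2, the mitochondrial methionine enzyme, is a single-exon gene of 11294 bases on chromosome 1, at 55237177 to 55248470, the longest transcript among the members. Its values were low, 3.64, 3.83, 2.54 and 3.70 in the controls and 5.69, 5.10, 1.53 and 6.01 with the Etv5 shRNA. Library 3 was the lowest of the 8 and the other 3 Etv5 shRNA libraries the highest. The log2 fold change was 0.24 with all libraries (SE 0.319, limma adjusted p = 0.881) and 0.58 without library 3 (SE 0.125, 95% interval 0.30 to 0.86, limma adjusted p = 0.0393), so the Mars2 call depends on that library being left out. It was also lost in the 7 libraries under equal sums (limma adjusted p = 0.0916) and without the filter on low values (0.0991). Mean values were 3.43 ± 0.594 (SD, n = 4) and 5.60 ± 0.462 (SD, n = 3), a ratio of 1.63.

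**Figure D2:**
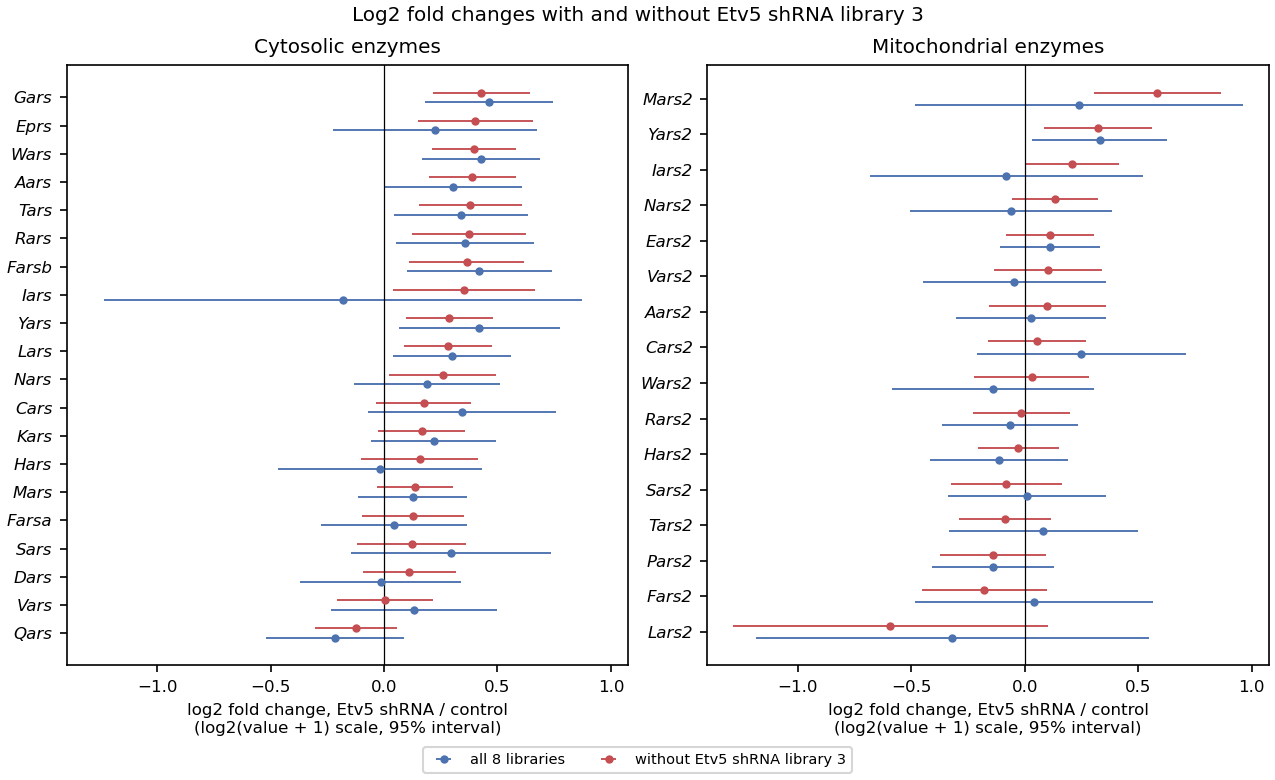
Log2 fold change of the Etv5 shRNA over the control libraries for each gene, on the log2(value + 1) scale, with the 95% interval of the limma fit, for all 8 libraries (blue) and without Etv5 shRNA library 3 (red). Intervals narrow without library 3, most for Iars and Mars2, while the points of Gars, Wars, Rars and Yars2 move little.

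Of the other cytosolic enzymes outside the multisynthetase complex, Tars, for threonine, had the smallest adjusted p without library 3. It read 93.0, 98.8, 111 and 99.8 in the controls and 136, 139, 116 and 119 with the Etv5 shRNA, with no overlap, and its log2 fold change was 0.34 with all libraries and 0.38 without library 3 (limma adjusted p = 0.590 and 0.0811). Yars, for tyrosine, read 36.9, 40.5, 43.7 and 38.2 in the controls and 48.7, 49.3, 70.6 and 48.2 with the Etv5 shRNA. Its groups did not overlap, and library 3 was far above the other 3. The log2 fold change of Yars was 0.42 and, without library 3, 0.29 (limma adjusted p = 0.561 and 0.107).

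Phenylalanine is loaded by an enzyme built of 2 kinds of subunit, and their genes were not alike in value. Farsb, the beta subunit, read 23.0, 28.3, 28.8 and 27.8 in the controls and 34.5, 39.7, 40.8 and 30.9 with the Etv5 shRNA, with no overlap. Farsa, the alpha subunit and 1 of the genes with the ETS motif, read 28.3, 27.2, 33.2 and 28.1 against 32.3, 28.9, 25.2 and 34.9, and its groups overlapped. Without library 3 the log2 fold changes were 0.36 for Farsb and 0.13 for Farsa (limma adjusted p = 0.121 and 0.523). The difference between the 2 genes was not tested.

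Asparagine, histidine, cysteine, serine and valine complete the free enzymes. Nars read 109, 115, 137 and 113 in the controls and 143, 149, 117 and 133 with the Etv5 shRNA, so its groups overlapped. Cars read 48.7, 44.1, 53.9 and 44.9 against 55.0, 55.5, 86.8 and 51.8, and Sars 80.7, 86.5, 100.5 and 76.3 against 96.6, 93.5, 152 and 89.4. In both, library 3 was the sole Etv5 shRNA library far above the controls. Vars, with the highest control mean of the 36, was at 135 ± 5.17 (SD, n = 4) in the controls and 136 ± 11.1 (SD, n = 3) without library 3. Its log2 fold change was 0.00 with a 95% interval from −0.21 to 0.21. Hars was 27.0 ± 3.97 and 30.03 ± 1.80 on the same footing. Over the 12 free genes the median log2 fold change without library 3 was 0.27, and 3 were called.

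The 8 cytosolic enzymes held in the multisynthetase complex had a median of 0.22 without library 3 and 0 calls. Eprs, which joins the glutamate and proline enzymes in 1 chain, had the largest value of them. It read 58.0, 57.8, 45.3 and 58.0 in the controls and 73.2, 78.3, 43.9 and 65.9 with the Etv5 shRNA. Library 3 was the lowest of the 8, and without it the groups did not overlap (log2 fold change 0.40, SE 0.113, limma adjusted p = 0.0958; 0.23 and 0.879 with all libraries). Rars, for arginine, read 55.5, 66.2, 72.3 and 60.2 in the controls and 85.9, 87.2, 78.5 and 74.3 with the Etv5 shRNA. The groups of Rars were apart in all 8 libraries, with a log2 fold change of 0.36 and, without library 3, 0.37 (limma adjusted p = 0.562 and 0.112). Lars, for leucine, was nearly level over the controls, 41.7, 41.5, 41.7 and 42.5, and read 53.7, 54.3, 53.9 and 45.7 with the Etv5 shRNA. Library 4 was the lowest of its group and still above the controls (log2 fold change 0.28 and limma adjusted p = 0.121 without library 3).

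Iars, for isoleucine, was the member that library 3 moved most. It read 51.8, 51.3, 36.4 and 55.1 in the controls and 61.0, 66.3, 13.4 and 57.7 with the Etv5 shRNA. Its lowest values in either group were in library 3 of that group. Iars went from a log2 fold change of −0.18 with all libraries to one of 0.35 without library 3 (limma adjusted p = 0.915 and 0.215). In the annotation 8.61% of the 50-base words of its transcript also occur in the pseudogene Gm4849, so its value may hold or lack shared reads. Kars, Mars and Dars had smaller values without library 3, log2 fold changes of 0.17, 0.14 and 0.11. Mars, whose promoter holds the ETS motif, read 44.7, 46.2, 44.5 and 46.5 in the controls and 48.7, 51.0, 48.5 and 50.7 with the Etv5 shRNA, a small difference with no overlap (limma adjusted p = 0.357 without library 3).

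Qars, for glutamine, went the other way. It read 86.1, 86.2, 85.3 and 81.7 in the controls and 81.3, 74.5, 59.9 and 77.5 with the Etv5 shRNA, and every Etv5 shRNA library was below every control. The gap between the groups was narrow, from 81.3 to 81.7. The log2 fold change was −0.22 with all libraries and −0.12 without library 3 (limma adjusted p = 0.855 and 0.437), so the direction did not pass the test.

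By structural class, the 9 class I cytosolic genes had a median log2 fold change of 0.28 without library 3 and the 10 of class II 0.21; Eprs holds both kinds and is in neither count. The 5 genes with the ATF4-type motif, Aars, Gars, Iars, Tars and Yars, had a median of 0.38. In all 5 the groups did not overlap, with the Etv5 shRNA higher, once library 3 was left out, beside 9.78% of all genes. The 8 cytosolic genes whose promoter lacked the motif had a median of 0.13, with groups apart in the higher direction in 4. The remaining 7, with no promoter in the table, had a median of 0.26. With all 8 libraries these 3 medians were 0.34, 0.17 and 0.30. The groups were then apart in the higher direction in 3 of the 5, 3 of the 8 and 3 of the 7, beside 1.52% of all genes. Over all genes tested that had a promoter, the same split was made: the median without library 3 was 0.01 in the 222 genes that held it and 0.00 in the 8722 that did not, and 2.703% and 1.01% were called higher. Members are among the 222, the motifs were chosen with the members' values known, and no difference between these sets was tested.

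The mitochondrial enzymes showed no common direction. Yars2, for tyrosine, read 12.7, 12.2, 14.8 and 12.1 in the controls and 15.9, 14.9, 16.8 and 18.7 with the Etv5 shRNA. It was the sole mitochondrial gene with groups apart in all 8 libraries, by a gap from 14.8 to 14.9, and its log2 fold change was 0.33 and, without library 3, 0.32 (limma adjusted p = 0.615 and 0.140). Iars2, for isoleucine, read 24.5, 23.1, 20.1 and 24.6 in the controls and 27.0, 27.5, 11.5 and 25.6 with the Etv5 shRNA, so that, as in Iars, library 3 was the lowest of its group in both. Without library 3 the log2 fold change of Iars2 was 0.21 (limma adjusted p = 0.265; −0.08 and 0.930 with all libraries). In the annotation 37.2% of its transcript overlaps Rab3gap2.

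Lars2, for leucine, varied widely; its standard error was the largest of the 36 without library 3, and second to that of Iars with all libraries. It read 63.2, 106, 86.7 and 79.0 in the controls and 46.9, 34.4, 117 and 98.9 with the Etv5 shRNA. Etv5 shRNA libraries 1 and 2 were the lowest of the 8, while library 3 was the highest and library 4 lay within the range of the controls. The mean was 83.8 ± 17.8 (SD, n = 4) in the controls and 60.1 ± 34.2 (SD, n = 3) without library 3, a log2 fold change of −0.59 with a 95% interval from −1.29 to 0.10 (limma adjusted p = 0.340; −0.32 and 0.879 with all libraries). Without Lars2 the mitochondrial median, library 3 left out, was 0.06 in place of 0.04.

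Of the other 12 mitochondrial genes, log2 fold changes without library 3 ran from −0.18 for Fars2 to 0.13 for Nars2, and the smallest limma adjusted p was 0.431, for Nars2. Nars2, for asparagine, read 3.74, 3.73, 4.16 and 3.67 in the controls and 4.21, 4.26, 2.09 and 4.40 with the Etv5 shRNA. Apart from library 3, its Etv5 shRNA libraries lay just above the controls. Hars2, for histidine, kept to a narrow band outside library 3, with controls of 5.74, 5.64, 5.76 and 5.52 and Etv5 shRNA values of 5.62, 5.44, 4.15 and 5.56; its 95% interval ran from −0.21 to 0.15. Pars2, for proline, read 2.44, 2.15, 2.38 and 2.20 against 1.59, 2.21, 1.97 and 2.21, with overlap and a log2 fold change of −0.14. Rars2, whose promoter holds the ETS motif, had a log2 fold change of −0.01.

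In the control cells the cytosolic genes had coverage values from 27.0 to 135, with a median of 51.7, and the mitochondrial genes from 1.37 for Ears2 to 83.8 for Lars2, with a median of 4.81. The median over all genes tested was 8.51. The order of the control means began with Vars (135), Nars (119), Gars (113) and Tars (101), and of the 35 neighbours in the order 27 had control values that overlapped, so most adjacent ranks are not separated. Lars2 stood far above the next mitochondrial gene, Iars2 at 23.1. For 13 amino acids the members include a cytosolic and a mitochondrial gene whose symbols match apart from the suffix. The cytosolic level was higher for 12 of them. Phenylalanine, glutamate and proline also have member genes of both kinds, but their symbols do not match in this way. They are not among the 13 pairs. Over these pairs the ratio of the levels had a median of 8.70 and reached 38.0 for valine. For leucine it was 0.4997, the sole pair in which the mitochondrial gene was higher.

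In these 13 pairs the log2 fold change of the cytosolic gene was the higher one for 11 with all libraries and for 10 without library 3. The 3 exceptions without library 3 were methionine, where Mars had 0.14 and Mars2 0.58, valine, with 0.00 for Vars and 0.10 for Vars2, and tyrosine, with 0.29 for Yars and 0.32 for Yars2. The pairs share their libraries and are not independent, so these counts carry no test.

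**Figure D3:**
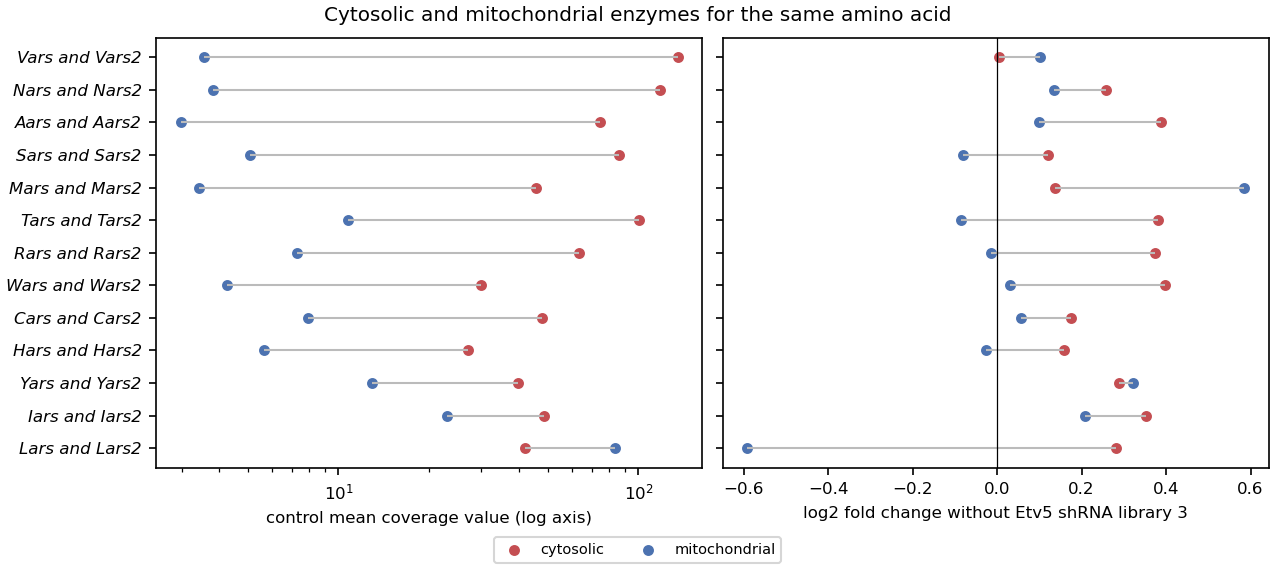
The 13 amino acids with a cytosolic (red) and a mitochondrial gene (blue) whose symbols match apart from the suffix. Left, mean control coverage value on a log axis, where the red point is to the right for all but leucine; right, log2 fold change without Etv5 shRNA library 3, where the red point is to the right for 10.

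Summed over the 20 cytosolic genes, the coverage values came to 1246, 1289, 1355 and 1262 in the controls and 1546, 1556, 1543 and 1461 with the Etv5 shRNA. Every Etv5 shRNA library was above every control. The values are as deposited and not divided by each library's total, which was 390495 in Etv5 shRNA library 3 and 254792 to 308393 in the other 7. Taken as a share of the library's total, the cytosolic sum of library 3 was below that of every control. In Etv5 shRNA libraries 1, 2 and 4 that share was above every control. The mean of log2(value + 1) over the same genes was 5.80, 5.86, 5.90 and 5.83 against 6.11, 6.12, 5.96 and 6.03, again apart. Over the 16 mitochondrial genes that mean was 2.86, 2.91, 2.91 and 2.87 against 2.89, 2.88, 2.82 and 3.00, with the groups overlapping. The distance between the cytosolic and the mitochondrial mean was 2.93, 2.95, 2.99 and 2.96 in the controls and 3.22, 3.24, 3.14 and 3.03 with the Etv5 shRNA. It was wider in each of the 4 Etv5 shRNA libraries, least in library 4, and is given as a description with no test. The gap between the 2 medians depended on the scaling of the libraries, being 0.28 as deposited and 0.04 after quantile normalisation with all 8 libraries, and 0.23 and from 0.17 to 0.26 over the settings tried without library 3.

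**Figure D4:**
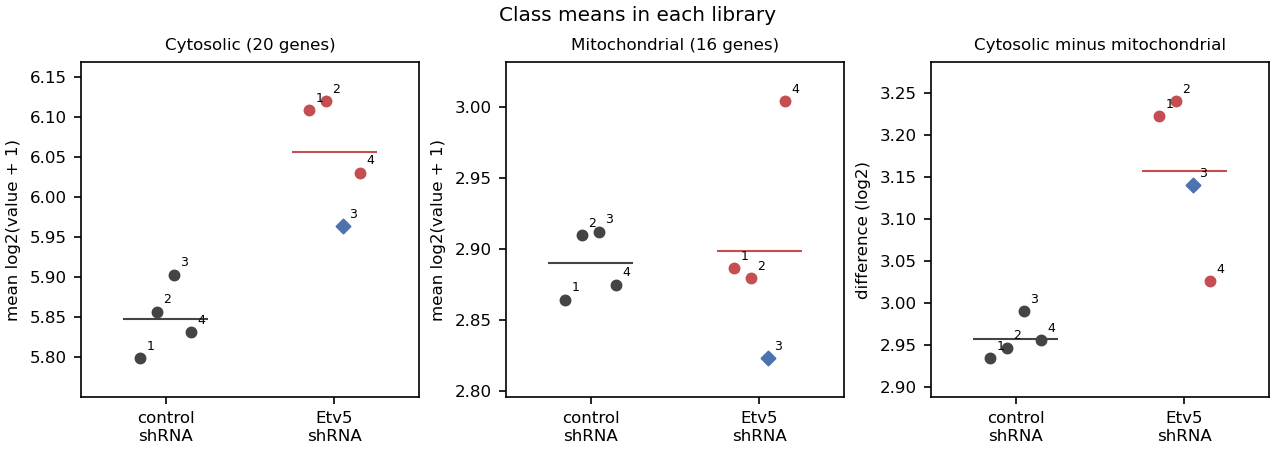
Mean of log2(value + 1) in each library over the 20 cytosolic genes (left) and the 16 mitochondrial genes (middle), and the cytosolic minus the mitochondrial mean (right). Numbers are library numbers, lines are group means over 4 libraries, and the blue diamond is Etv5 shRNA library 3; each vertical axis spans a narrow range and does not start at 0.

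The departure of library 3 from the rest was not uniform over the family. Its value was below all other 7 libraries for 13 of the 36 genes and above all 7 for another 13. Against the mean of the other 3 Etv5 shRNA libraries, Iars was at 0.217, Mars2 at 0.274 and Iars2 at 0.430 of their level, while Fars2 was at 2.04. Measured as the log2 deviation from the median library, the members of library 3 ran from −1.92 for Iars to 0.79 for Cars2, with 7 above 0.5 and 7 below −0.5; no other library had more than 1 member beyond either limit. Over all genes, library 3 was higher for short transcripts, with a median deviation of 0.43 at or below the lower length quartile, and lower for long ones, with −1.06 at or above the upper. Across the 36 members the Spearman correlation of deviation with transcript length was −0.33 in library 3 and −0.55 in control library 3, and between 0.06 and 0.37 in the other 6, as a description over genes that share each library. Transcript lengths were 1826 to 5750 bases for the cytosolic genes and 1868 to 11294 for the mitochondrial ones. The part of length in the members' differences was not tested beyond the fit with each library's length trend removed, in which 0 members were called with all 8 libraries and 8 without library 3, the 4 already named and Eprs, Farsb, Rars and Yars. Calls rose over all genes too. Of the 11685 tested without library 3, 473 were then higher and 562 lower, against 127 and 241 with the trend kept.

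**Figure D5:**
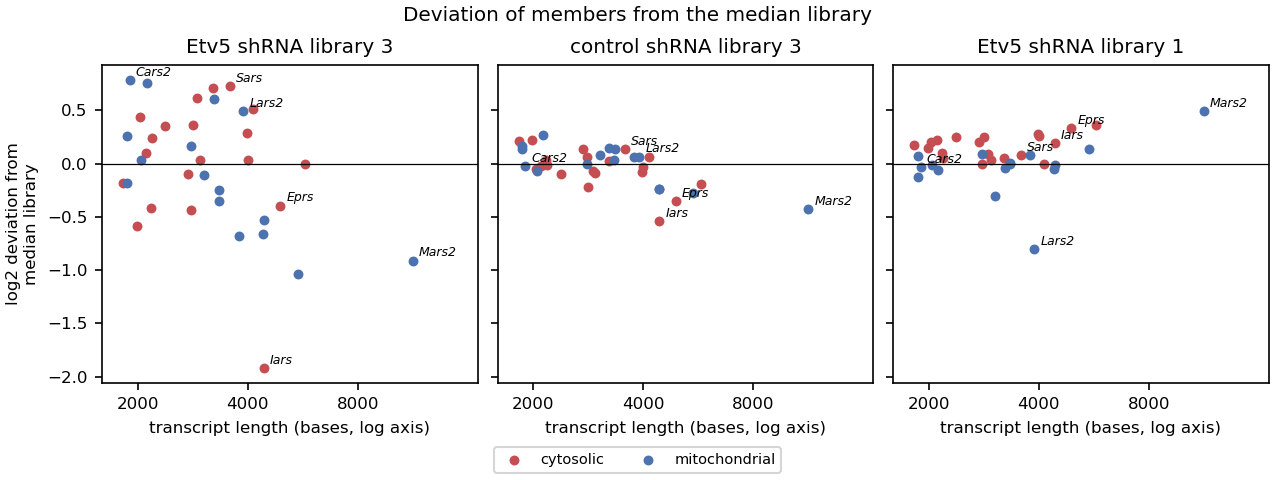
Log2 deviation of each of the 36 genes from the median library against transcript length in bases (log axis) in 3 libraries; red points are cytosolic and blue mitochondrial genes. In Etv5 shRNA library 3 (left) points spread from −1.92 for Iars to 0.79 for Cars2, and in control library 3 (middle) and Etv5 shRNA library 1 (right) most lie near 0.

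Other genes of transfer RNA charging and of the amino acid response were taken as lists. None of them had a call with all 8 libraries, so the counts that follow are without library 3 and are read against 1.09% called higher and 2.06% called lower. The 3 scaffold genes of the multisynthetase complex, Aimp1, Aimp2 and Eef1e1, had 0 calls, and Aimp2 had the smallest limma adjusted p, 0.262. The 6 partners of mitochondrial charging had 0 calls. The smallest adjusted p there was that of Qrsl1 (0.0977), a subunit of the amidotransferase that makes glutaminyl-tRNA in mitochondria. Of 14 genes for transfer RNA processing and export, 1 rose, the 3′ processing nuclease Elac2, from 7.26 ± 0.207 (SD, n = 4) to 9.63 ± 0.390 (SD, n = 3; log2 fold change 0.36, limma adjusted p = 0.0432), with 5.16 in library 3. Of 8 genes for proofreading and peptidyl-tRNA release 0 were called, and the smallest adjusted p was that of Dtwd1 (0.0792), which is known as a transfer RNA modification enzyme and so does not do what that list's name says. Of 9 elongation factors 1 rose, the mitochondrial factor Gfm1, from 16.7 ± 0.745 to 22.4 ± 1.27 (log2 fold change 0.40, limma adjusted p = 0.0318), with 8.49 in library 3.

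Among 14 sensors and factors of the amino acid response, Atf3 rose from 4.33 ± 0.469 (SD, n = 4) to 7.33 ± 0.382 (SD, n = 3; log2 fold change 0.65, limma adjusted p = 0.00950) and Cebpb fell from 162 ± 34.8 to 80.1 ± 19.6 (log2 fold change −1.02, limma adjusted p = 0.0265). Atf4 itself was at 199.8 ± 35.5 and 221 ± 4.34, with a log2 fold change of 0.16 (limma adjusted p = 0.563). Of these 14 genes 12 had a log2 fold change above 0 and 2 below, Cebpb and Ddit3 (−0.25, limma adjusted p = 0.425). In library 3 Cebpb was at 164, within the range of the controls, and Atf3 at 5.30, above every control. Of 22 genes of amino acid synthesis and transport that are known ATF4 targets, 7 rose and 0 fell, and the log2 fold change was above 0 in all 22, with a median of 0.34. With all 8 libraries it was above 0 in 17, with a median of 0.17. Those that rose were Slc7a5 and Slc1a5, transporters of large neutral amino acids and of glutamine, with log2 fold changes of 0.58 and 0.41, the folate enzyme Mthfd2 (0.50), Aldh18a1 of proline synthesis (0.45), Cth of cysteine synthesis (0.58), Gpt2 of alanine synthesis (0.65) and the glutathione-degrading Chac1 (0.54). In library 3 Slc7a5 was at 68.0, against 102 ± 7.44 in the controls and 153 ± 3.74 in the other 3 Etv5 shRNA libraries. Slc1a5 (48.3), Aldh18a1 (24.1), Cth (28.2), Gpt2 (16.2) and Chac1 (32.1) were, like Slc7a5, below every control in library 3. Mthfd2 alone of the 7, at 102, was above every control there. Asns, the asparagine synthetase, was at 121 ± 13.3 and 156 ± 12.5 (log2 fold change 0.37, limma adjusted p = 0.117). Of the 4 genes of the Myc list Mycn was at 0 in every library, and of the 3 tested 0 were called. Mycl had the smallest limma adjusted p, 0.212, and Myc was at 133 ± 4.11 and 139 ± 1.96.

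Markers of other cells were near the floor. Summed coverage was 2.93 to 4.47 over 12 leukocyte markers in the controls and 2.93 to 3.34 with the Etv5 shRNA, 2.71 to 3.66 and 0.632 to 2.55 over 7 fibroblast markers, and at most 0.125 over 5 endothelial markers. The summed epithelial markers were 1172 to 1602 in the controls and 1166, 1333 and 1432 in Etv5 shRNA libraries 2, 1 and 4, and 2745 in library 3. Without library 3, Cdh1, the epithelial cadherin, rose from 38.5 ± 3.49 (SD, n = 4) to 63.3 ± 2.87 (SD, n = 3, log2 fold change 0.71, limma adjusted p = 0.00449), and the fibroblast marker Pdgfra fell (log2 fold change −0.50, limma adjusted p = 0.0446). Cdh1 was the sole call among the 8 epithelial markers, of which 5 had a log2 fold change above 0 and 3 below. Pdgfra was the sole fibroblast marker tested. In library 3 Cdh1 was at 31.0 and Pdgfra at 0.519, each below every control. With all 8 libraries neither was called (limma adjusted p = 0.806 and 0.435). The part of either in the members' values was not tested.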

How the data were processed

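Library preparation used Illumina's TruSeq kit and sequencing a NovaSeq instrument, per the labels' protocols, and reads were aligned to mm10 with STAR 2.7.10a, per the submitters' processing notes. The deposited table gives 1 signal value per gene and library, read from the values as mean coverage per base scaled to depth; the averaging program and its annotation are not stated in those sources, and read depth is unknown, so no counting interval is given. The 24787 rows include 7088 at 0 in every library.

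Groups and replicate numbers came from the sample titles. Values were taken as log2(value + 1), which understates the change of low genes. A gene was tested where 4 or more libraries reached 0.5. Groups were compared with limma 3.58.1 (R 4.3.3) with an intensity trend and Benjamini-Hochberg adjustment over all genes tested, called at an adjusted p under 0.05. The whole table was fitted with 8 libraries (11731 genes) and without Etv5 shRNA replicate 3 (11685 genes). The script was tested on simulated data. Tables were handled in Python 3.11.15 with pandas 2.3.3. Gene positions, overlaps and lengths came from GENCODE mouse release M21 (mm10) and promoters from RefSeq (GRCm38.p6), where Mars is listed as Mars1.

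The members, gene lists and settings were chosen with earlier results of these data known. The rule for names took every called member, then the 4 of each class with the smallest adjusted p, and of each list its called genes or else the gene with the smallest adjusted p. The fit without replicate 3 was used for that order after both fits had been seen. Atf4, Ddit3, Asns, Myc and the other members were named outside that rule, with values seen. The 3 promoter motifs were chosen with the members' values known. Gene length is that of the longest protein-coding transcript, set after a first run with the longest of any type, because that was a retained intron for some members. Array quality weights were estimated gene by gene after limma's default method had stopped short of convergence and its counts over all genes had been seen. Library columns all matched a sample.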

Additional observations from a re-analysis of the deposited data

Results flagged for a closer look

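In each group of 4 libraries, the highest or lowest value was set against the rest by Dixon's ratio at its 95% critical value. Of 78 groups screened (36 genes, the cytosolic sum, the mitochondrial sum and the distance between the class means, in each of the 2 groups), 18 passed, where chance gives about 1 in 20 groups, or 3.9. The groups share libraries and are not independent, and 10 of the 18 lie in Etv5 shRNA library 3. In that library Cars (86.8), Kars (112), Sars (152), Yars (70.6), Cars2 (14.8) and Tars2 (16.7) were far above the other 3 Etv5 shRNA libraries. In the same library Iars (13.4), Hars2 (4.15), Iars2 (11.5) and Nars2 (2.09) were far below them.

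Control library 3 held 4 of the 18, with Eprs (45.3) and Mars2 (2.54) below the other controls and Kars (93.6) and Nars2 (4.16) above them. Kars thus stood out high in library 3 of both groups. Nars2 stood out high in control library 3 and low in Etv5 shRNA library 3. Farsb was low in control library 1, at 23.0. Lars was high in control library 4, at 42.5 against 41.5 to 41.7, a small distance beside the tightness of the other 3. In Etv5 shRNA library 4 Lars was low, at 45.7, and so was the sum over the 20 cytosolic genes, at 1461.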

How the results depend on the processing

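Of the single-gene values under the alternatives, 653 were counted as unchanged, 30 passed the threshold under an alternative, and 37 changed sign. A change of sign was counted only where the value exceeded its standard error in either fit, so the 653 include sign changes of small values. This last rule was set after the values were seen; with any size of change counted, up to 11 of the 36 signs differed under 1 setting.

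With all 8 libraries 0 members were called higher or lower under every setting but these. Array quality weights, which gave Etv5 shRNA library 3 a weight of 0.0290, called 15 higher and 1 lower, and 1050 genes higher and 1248 lower in all. Without Etv5 shRNA replicate 3 alone, 4 were called, with median-of-ratios scaling 3, and with the length trend removed 8. Leaving out 1 library gave 0 to 4 calls. The cytosolic median moved from 0.26 to 0.43 under median-of-ratios scaling, 0.17 under equal sums and 0.19 under quantile normalisation, which put the median of all genes at 0.02, −0.18 and 0.00. The mitochondrial median of −0.02 became 0.13, −0.085 and 0.15 under the same 3, 0.043 without replicate 3, and there 0.052 with median-of-ratios scaling and 0.048 with the length trend removed; leaving out 1 library gave −0.041 to 0.043. The difference of the medians fell from 0.28 to 0.042 under quantile normalisation.

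From the 7 libraries, the 4 calls became 8 with the length trend removed, 1 under equal sums, 2 without the filter and 19 higher and 2 lower under array quality weights, and 0 to 11 with 1 further library left out. Over all genes, 127 were called higher in the main 7-library fit. That count was 473 with the length trend removed, 67 under equal sums and 88 without the filter. Array quality weights called 1387 higher and 1431 lower. Quantile normalisation also gave 4, with Tars in place of Aars. The cytosolic median was 0.32 under equal sums. These settings, apart from the length trend, the block and median-of-ratios scaling, were added after the data were seen.

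The shared replicate numbers are not stated to pair libraries. Deviations of same-numbered libraries correlated at 0.55, 0.09, 0.79 and 0.51 for numbers 1 to 4, and not every library correlated best with its own number. With the number as a replicate block 0 members were called with 8 libraries and 0 without replicate 3, where 80 genes in all were higher and 212 lower.

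Signs changed mostly with replicate 3. Without it, log2 fold changes became 0.11 for Dars, 0.16 for Hars, 0.35 for Iars, −0.18 for Fars2, 0.21 for Iars2 and 0.13 for Nars2. Leaving out 1 library in turn gave −0.39 to 0.35 for Iars, −0.19 to 0.21 for Iars2 and −0.13 to 0.13 for Nars2. With the length trend also removed they were 0.14, 0.20, 0.31, −0.15, 0.14 and 0.11, and −0.094 for Tars2. With median-of-ratios scaling they were 0.12, 0.17, 0.36, −0.17, 0.22 and 0.14, and 0.11 for Vars2, and with the replicate block 0.13, 0.25, 0.22, −0.11, 0.15 and 0.17. Over 8 libraries, array quality weights gave 0.13, 0.24, 0.23, −0.10, 0.17 and 0.15, median-of-ratios scaling 0.16 for Dars and 0.15 for Hars, and quantile normalisation 0.14 for Nars2, 0.077 for Pars2 and 0.15 for Vars2. The cause was not tested. Read depth is unknown, so no limit from depth is given, and the mitochondrial genes at values below 5 are those whose changes the scale understates most.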
